A study of Mus musculus with 6 samples.

Results

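ATP-binding cassette (ABC) transporters were followed here in the kidneys of diabetic mice. The members are the protein-coding genes whose symbol begins with Abc, a subfamily letter from A to G and a digit. By this rule there were 50 members among 55401 gene identifiers, of which 21859 were protein coding: 16 in subfamily A, 10 in B, 10 in C, 4 in D, 1 in E, 3 in F and 6 in G. RNA-seq had been run on 6 kidney libraries, 3 labelled WT/Sed and 3 labelled Cdo1KKO/Sed, each given as a separate biological replicate. Mice of both groups had type 1 diabetes induced with streptozotocin. The groups differ in Cdo1, the gene of cysteine dioxygenase, which oxidises cysteine on the way to taurine; the genotype tags are WT and KO. What Sed stands for is not spelled out in the labels, which give no promoter or Cre line for the knockout, no age, no sex and no batch.

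ABC proteins bind and hydrolyse ATP through paired nucleotide-binding domains, and most use that energy to move a substrate across a membrane. Full transporters carry both domain pairs in 1 chain, while half-transporters work as dimers. In the proximal tubule, pumps of the apical membrane pass drugs, conjugates and urate into the urine, after solute carriers of the blood side have taken many of these substrates up; other members move sterols and phospholipids, load acyl-CoA into peroxisomes, serve mitochondria or, in subfamilies E and F, act on ribosomes and transport nothing.

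The libraries held 28145261 to 43872779 counts. Cdo1 itself stood at 181, 191 and 180.5 CPM (counts per 1e+06 counts, with library sizes scaled by TMM) in the WT/Sed libraries and at 109, 118 and 103 CPM in the Cdo1KKO/Sed libraries. It fell by 0.74 on the log2 scale (adjusted p 4.64e-06, edgeR), so its transcript was lower in all 3 knockout libraries and present in each. Markers of the kidney proximal tubule were abundant in every library: the summed level of 6 markers of segment S1 was 5518 to 6546 CPM in WT/Sed and 3169 to 3597 CPM in Cdo1KKO/Sed, and all 6 fell. Of 6 markers of segments S2 and S3, 5 fell, with summed levels of 2808 to 3215 CPM and 1892 to 2074 CPM. Of 11 macrophage markers, 8 rose and 1, Csf1r, fell, with summed levels of 63.1 to 102 CPM and 397 to 428 CPM, and all 6 red cell markers rose. In whole kidney, fewer cells of a type and less RNA per cell cannot be told apart.

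A few members held most of the family's transcript. On the deposited TPM scale, which is per length and so allows genes to be compared, 3 members reached 100 TPM in WT/Sed, 16 reached 10 TPM and 29 reached 1 TPM. Abcd3, a peroxisomal half-transporter, led with 214, 186 and 243 TPM in WT/Sed and 223, 224 and 225 TPM in Cdo1KKO/Sed. Abcg2, an apical pump for urate and drugs, followed with 171, 158 and 185 TPM in WT/Sed and 151, 154 and 152 TPM in Cdo1KKO/Sed. Abcc2, an apical pump for conjugated organic anions, had 108, 112 and 114 TPM in WT/Sed and 114, 108 and 114 TPM in Cdo1KKO/Sed. Within every library Abcd3 stood above Abcg2 and Abcg2 above Abcc2, and the ranges of the 3 genes did not overlap. These 3 genes made up 55.3 to 56.0% of the family's summed TPM in WT/Sed, against 50.4 to 50.8% in Cdo1KKO/Sed.

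Lower levels in WT/Sed were those of Abca3 (56.1 TPM), Abce1 (44.6 TPM), Abcf2 (38.9 TPM), Abcf1 (36.7 TPM), Abcf3 (26.7 TPM) and Abcb8 (18.7 TPM). The WT/Sed ranges of Abcf2 and Abcf1 overlap. At the other end, Abca12, Abca15, Abca16 and Abcb5 had no count in any library, which allows up to 0.0281 CPM over the WT/Sed libraries and 0.0254 CPM over the Cdo1KKO/Sed libraries, for counting error only. Another 8 members were too low to be tested: Abca6, Abca14, Abcb11, Abcc8, Abcc12, Abcg4, Abcg5 and Abcg8. The remaining 38 were tested.

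**Figure D1:**
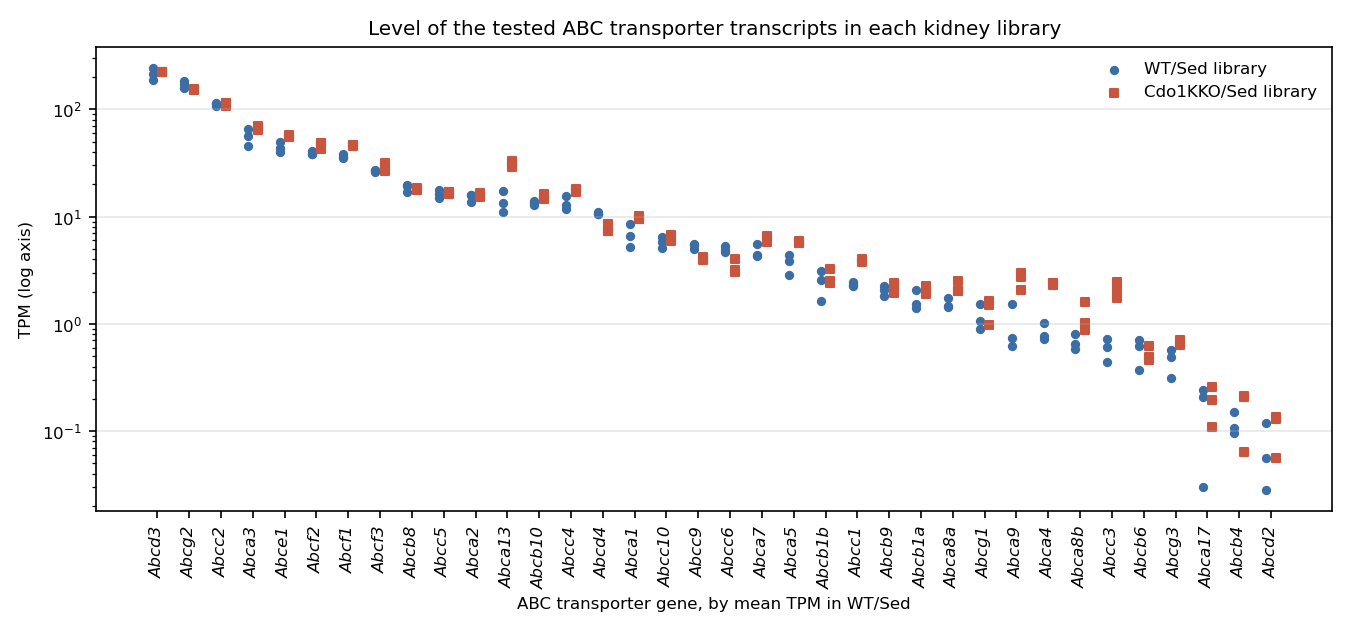
Deposited TPM (log axis) of 36 of the 38 tested ABC transporter genes, ordered by their mean in WT/Sed; each point is 1 library, circles for WT/Sed and squares for Cdo1KKO/Sed. Abcd3, Abcg2 and Abcc2 stand above 100 TPM in all 6 libraries, and Abca13 is the highest member with the Cdo1KKO/Sed points well above the WT/Sed points.

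Comparing Cdo1KKO/Sed with WT/Sed asks what loss of Cdo1 goes with in the diabetic kidney. Of the 38 tested members, 13 (34.2%) passed the test at an adjusted p under 0.05, against 37.4% of all 17194 genes tested. Among the members 6 rose (15.8%; 18.9% of all genes) and 7 fell (18.4%; 18.5% of all genes), so the members were called about as often as genes at large. Their median log2 fold change was 0.00, beside 0.01 for all genes, with 19 members on each side of 0. The 3 libraries of each group did not overlap for 6 members that were higher and 10 that were lower in Cdo1KKO/Sed, 16 in all, against 25.7% and 24.5% of all genes, 50.3% in all. The split depends on the scaling: it was 6 higher and 7 lower with TMM, 11 and 4 with library size alone, and 13 and 3 on log2(TPM + 1). Of the 10 members with the highest TPM in WT/Sed, 3 fell (Abcg2, Abcc2 and Abcb8) and 0 rose with TMM. On log2(TPM + 1) none of these falls was called (adjusted p 0.0505, 0.939 and 0.740, limma).

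The members that rose were Abcc3 on chromosome 11 (94343295 to 94392997, minus strand), Abca4 on chromosome 3 (122044443 to 122180123, plus strand), Abca9 on chromosome 11 (110100749 to 110168196, minus strand), Abca13 on chromosome 11 (9191942 to 9684259, plus strand), Abcc1 on chromosome 16 (14361558 to 14475737, plus strand) and Abca5 on chromosome 11 (110269369 to 110337716, minus strand). The members that fell were Abcc6 on chromosome 7 (45967555 to 46030302, minus strand), Abcd4 on chromosome 12 (84601464 to 84617413, minus strand), Abcc9 on chromosome 6 (142587862 to 142702315, minus strand), Abcg2 on chromosome 6 (58584523 to 58695676, plus strand), Abcb8 on chromosome 5 (24393663 to 24410054, plus strand), Abcc2 on chromosome 19 (43782192 to 43840740, plus strand) and Abcc5 on chromosome 16 (20331303 to 20426394, minus strand). Positions are those of whole genes in GRCm38 from GENCODE M21.

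**Figure D2:**
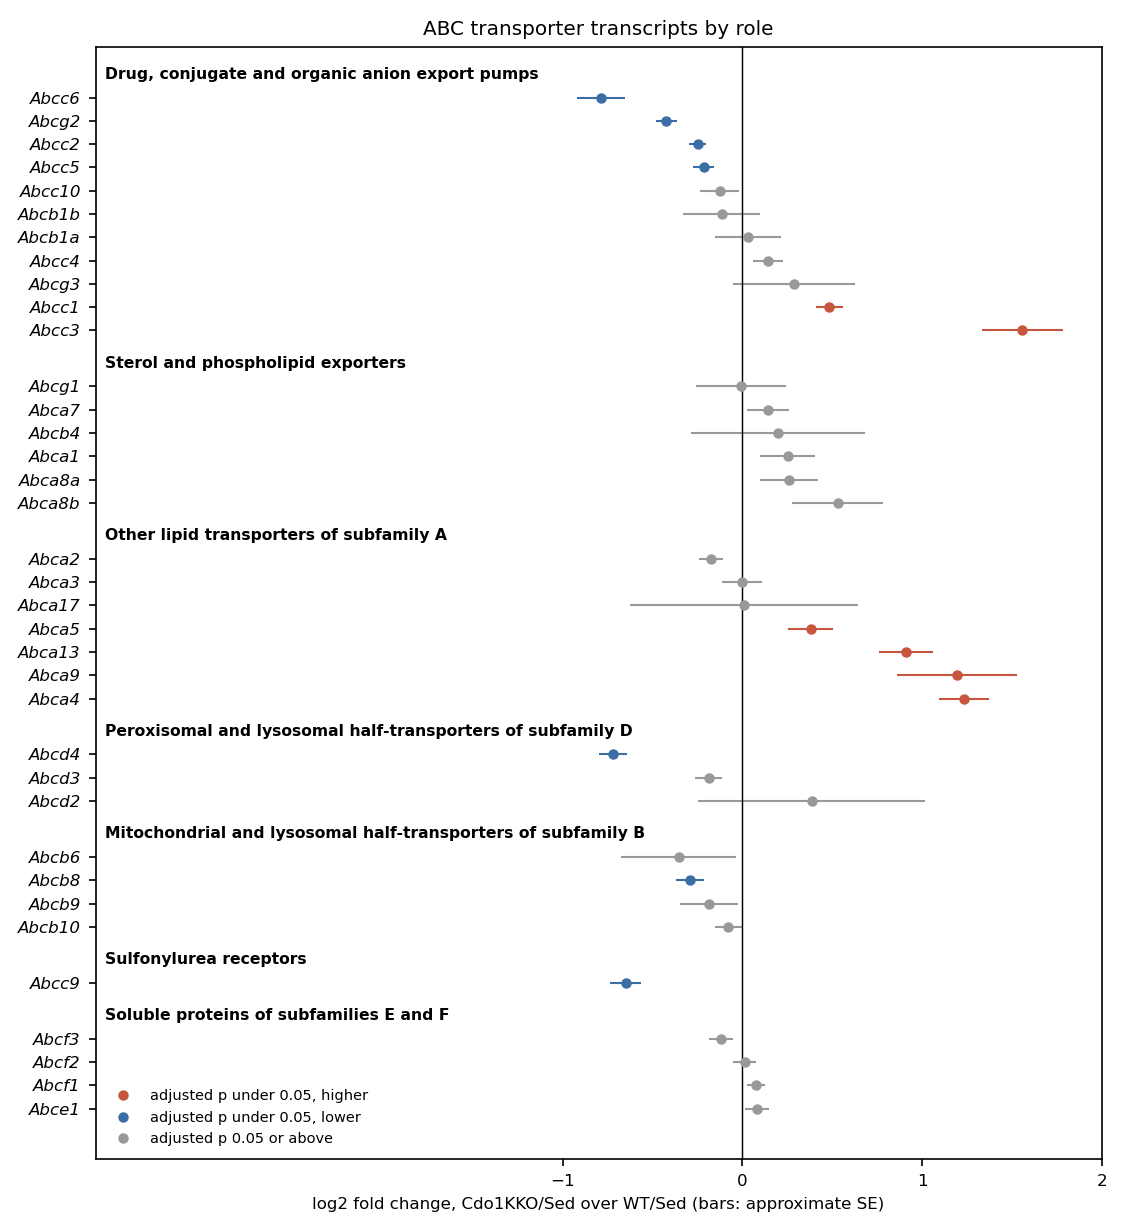
Log2 fold change of Cdo1KKO/Sed over WT/Sed for 36 of the 38 tested members, grouped by role, with the approximate SE as a bar. The called rises sit among export pumps and subfamily A, from 0.38 for Abca5 to 1.56 for Abcc3, and the called falls run from -0.79 for Abcc6 to -0.21 for Abcc5.

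Upstream sequence is shown for the members with the largest called changes that had an entry in the RefSeq promoter table (GRCm38.p6): Abca4 and Abca9, which rose, and Abcc9 and Abcg2, which fell. The table held 45 promoters of 38 members, 8 of them called. Each sequence below runs 5′ to 3′ on the gene's strand and ends just before the first annotated base of the gene. Capitals mark matches to motif letters: TATAAA, the letters of the TATA box, in Abca4, and the GC box GGGCGG, read on the opposite strand, in Abcc9. The Abca4 match starts 119 bases before the RefSeq start, and whether it acts as a TATA box was not tested. The stretch before the first of 3 Abcg2 start entries and that before Abca9 are wholly in lower case, without a match to any motif searched.
Abca4, chr3:122044210-122044442, plus strand: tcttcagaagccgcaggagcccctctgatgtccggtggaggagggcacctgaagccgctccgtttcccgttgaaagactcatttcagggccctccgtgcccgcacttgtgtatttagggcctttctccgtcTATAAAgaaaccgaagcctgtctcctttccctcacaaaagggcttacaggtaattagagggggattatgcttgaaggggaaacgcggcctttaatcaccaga
Abca9, chr11:110168197-110168403, minus strand: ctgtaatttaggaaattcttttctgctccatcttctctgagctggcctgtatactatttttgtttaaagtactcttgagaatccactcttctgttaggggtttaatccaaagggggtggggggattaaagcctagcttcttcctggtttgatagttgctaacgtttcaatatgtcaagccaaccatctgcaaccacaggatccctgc
Abcc9, chr6:142702316-142702524, minus strand: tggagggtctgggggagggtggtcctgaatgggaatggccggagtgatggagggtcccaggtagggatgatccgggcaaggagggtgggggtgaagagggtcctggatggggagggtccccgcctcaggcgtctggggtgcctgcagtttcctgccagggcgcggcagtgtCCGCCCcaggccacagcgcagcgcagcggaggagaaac
Abcg2, chr6:58584283-58584522, plus strand: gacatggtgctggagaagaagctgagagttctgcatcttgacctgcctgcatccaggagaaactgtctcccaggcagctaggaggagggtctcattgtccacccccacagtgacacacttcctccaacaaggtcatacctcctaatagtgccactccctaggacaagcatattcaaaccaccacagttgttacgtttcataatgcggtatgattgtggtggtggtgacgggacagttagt

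The motifs were searched on both strands in the 250 bases before each start. Among the 8 called members with an entry, the GC box was found in 3 (Abcg2, at its other starts and not at the one printed, Abcc9 and Abca5), where 32.7% of all 32851 promoters hold it. A member counts here if any of its starts has a match, while the shares are over single promoters. The letters TATAAA were found in 1, Abca4 (12.4% of all promoters), and the xenobiotic response element core GCGTG in 1, Abca5 (28.2%). The antioxidant response element core TGACNNNGC was found in 1, Abcc2 (10.2%). No match was found in these windows for AP-1 (TGANTCA, 6.75% of all promoters), the E-box CACGTG (6.02%), the HNF4 element CAAAGTCCA (0.384%), the kappaB element (0.140%) or the HNF1 element (0.00913%). The Abcc2 match starts 98 bases before the RefSeq start and lies inside the GENCODE gene, which begins further upstream. It is shown with its flanks, matched letters in capitals.
Abcc2, chr19:43782200-43782229, plus strand: ctcactgggaTGACATAGCattcatctagc

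Export pumps for drugs, conjugates and organic anions were the largest role group, and they moved both ways. Of 14 members 11 were tested. With TMM 4 fell and 2 rose, beside 18.5% and 18.9% of all genes, and the median log2 fold change was -0.12. On log2(TPM + 1) the falls of Abcg2, Abcc2 and Abcc5 were not called, while that of Abcc6 was. Abcg2 stood at 615, 575 and 656 CPM in WT/Sed and at 452, 472 and 454 CPM in Cdo1KKO/Sed. All 3 knockout libraries lay below the lowest WT/Sed library and close together. Abcg2 fell by 0.42 ± 0.06 on the log2 scale (approximate SE, n = 3 per group; adjusted p 0.000161, edgeR), from a mean of 615.5 ± 40.5 to 459 ± 10.97 CPM (SD). Abcc2, which carries the site printed above, had 407, 426 and 425 CPM in WT/Sed and 356, 345 and 358 CPM in Cdo1KKO/Sed. The groups did not overlap, and the libraries of each group were close. Abcc2 fell by 0.25 ± 0.05 (adjusted p 0.00187).

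Abcc6 had the largest fall of the tested members, and Abcc5 the smallest of the called falls. Abcc6, whose human counterpart is the gene of pseudoxanthoma elasticum and which releases ATP, had 11.9, 13.7 and 12.2 CPM in WT/Sed and 6.71, 8.68 and 6.45 CPM in Cdo1KKO/Sed. Its knockout mean was 57.8% of the WT/Sed mean, with no overlap. Abcc6 fell by 0.79 ± 0.13 (adjusted p 0.000771). Abcc5, a pump for cyclic nucleotides and other organic anions, had 76.3, 71.6 and 81.6 CPM in WT/Sed and 66.0, 65.4 and 66.5 CPM in Cdo1KKO/Sed. The knockout libraries were almost equal and all lower. Abcc5 fell by 0.21 ± 0.06 (adjusted p 0.0141), a call that was lost without WT/Sed replicate 1 (0.0512), Cdo1KKO/Sed replicate 1 (0.0606) or Cdo1KKO/Sed replicate 2 (0.0562).

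Both pumps that rose belong to subfamily C and are known from basolateral membranes, where they send conjugates toward the blood. Abcc3 had 1.54, 1.12 and 1.80 CPM in WT/Sed and 3.64, 4.50 and 5.17 CPM in Cdo1KKO/Sed. Every knockout library was above every WT/Sed library, and the ratio of the means was 2.98. Abcc3 rose by 1.56 ± 0.22 (adjusted p 0.000262), the largest log2 fold change among the tested members. Abcc1, which exports glutathione conjugates, had 15.4, 15.03 and 16.1 CPM in WT/Sed and 22.2, 21.6 and 21.4 CPM in Cdo1KKO/Sed. Its groups were narrow and far apart, and it rose by 0.48 ± 0.07 (adjusted p 0.000416).

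With TMM the other tested pumps were not called. Abcc4, an apical pump for cyclic nucleotides and urate, gave 0.14 ± 0.08 (adjusted p 0.208; 0.00612 without WT/Sed replicate 3). With library size alone Abcc4 passed the test as higher in Cdo1KKO/Sed (0.31, adjusted p 0.0107), as it did on both TPM scales. Abcc10 gave -0.13 ± 0.11 (adjusted p 0.397). The P-glycoprotein genes Abcb1a and Abcb1b gave 0.03 ± 0.18 and -0.12 ± 0.21. These neighbouring copies on chromosome 5 are alike enough that counting could split their reads. Abcb1b made up 58.8 ± 6.47% (SD) of their summed TPM in WT/Sed and 56.8 ± 1.89% in Cdo1KKO/Sed (2-sided exact permutation p 0.6; 3 against 3 cannot go below 0.1). Together the export pumps held 36.3 to 38.2% of the family's TPM in WT/Sed, against 33.1 to 33.2% in Cdo1KKO/Sed, shares that do not depend on the scaling between libraries.

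**Figure D3:**
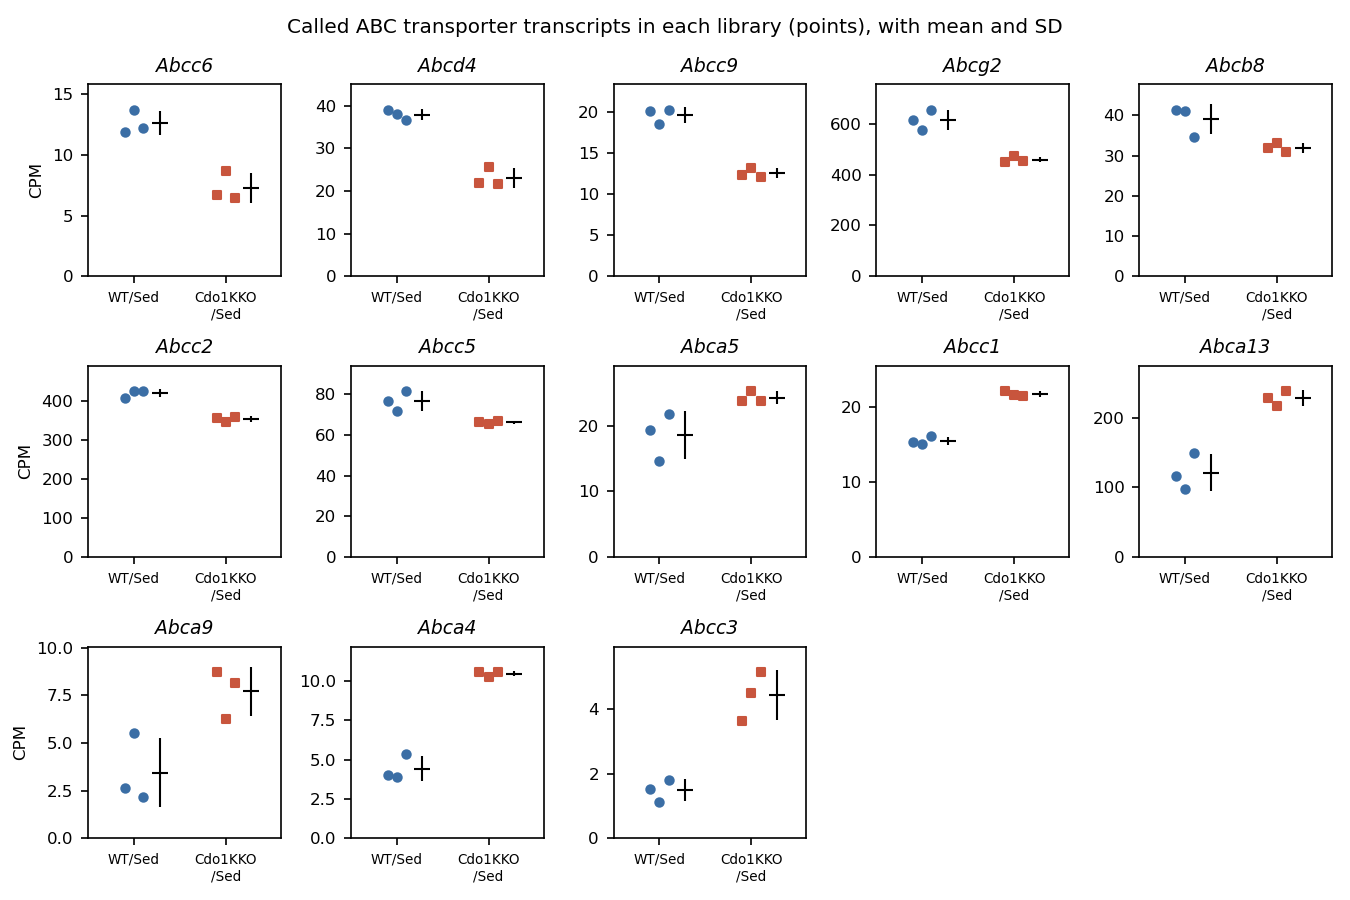
CPM of the 13 called members in each library (points; the axis starts at 0), with the group mean and SD as a bar beside them, ordered from the largest fall to the largest rise. No panel shows an overlap between the groups, and Abca9 shows the widest WT/Sed spread for its mean.

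Most solute carriers for the same kinds of substrate fell. Of 31 tested carriers for organic anions, cations and drugs, 20 fell and 0 rose, with a median log2 fold change of -0.59. Of all genes tested, 18.5% fell and 18.9% rose. Some of these carriers are also among the markers of segments S2 and S3. The counts for this and the other partner lists are with TMM. Slc17a1, an apical phosphate and urate carrier, fell by 0.92 ± 0.06 (adjusted p 6.17e-07), and Slc22a5, the carnitine carrier, fell by 0.97 ± 0.07 (adjusted p 1.83e-06). The difference between carriers and pumps was not tested. Among 17 tested nuclear receptors and other regulators of transporter genes, 3 rose and 6 fell. Nfe2l2, which encodes NRF2, rose by 0.67 ± 0.05 (adjusted p 4.43e-06), and Hnf4a, a hepatocyte and proximal tubule factor, fell by 0.76 ± 0.06 (adjusted p 2.83e-06).

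Some of the export pumps were also set against the proximal tubule markers within each library. This ratio was chosen after the values were seen and is free of the scaling between libraries. Abcg2 counts equalled 6.70, 5.89 and 7.88% of the summed counts of the 12 proximal tubule markers in WT/Sed, against 8.56, 8.32 and 8.97% in Cdo1KKO/Sed. Abcc2 counts equalled 4.43, 4.36 and 5.10% of them in WT/Sed, against 6.74, 6.08 and 7.06% in Cdo1KKO/Sed. Relative to these markers both pumps were thus higher in every knockout library. The markers themselves fell, with median log2 fold changes of -0.77 for segment S1 and -0.66 for segments S2 and S3. Any gene that fell clearly less than they did is higher on this ratio, so the direction was known beforehand and is no separate result. For Abcc6 the ratio was 0.139 ± 0.00856% in WT/Sed, against 0.136 ± 0.0149% in Cdo1KKO/Sed, with overlap. Abcc4 was higher in every knockout library, at 0.417 ± 0.0879% in WT/Sed, against 0.781 ± 0.0561% in Cdo1KKO/Sed. All these ratios share their denominator. With 6 such ratios compared, the 2-sided exact permutation p was 0.1 for Abcg2, Abcc2 and Abcc4 and 0.8 for Abcc6, and the adjusted p was 0.15 for those 3 and 0.8 for Abcc6.

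Subfamily A held 4 of the 6 rises. The lipid transporters of this subfamily other than the known sterol exporters numbered 12, of which 7 were tested. Of these 4 rose and 0 fell, beside 18.9% and 18.5% of all genes, with a median log2 fold change of 0.38. Abca13, a very long member that is thought to move cholesterol inside cells, had 117, 97.1 and 149 CPM in WT/Sed and 229, 217 and 239 CPM in Cdo1KKO/Sed. The lowest knockout library was far above the highest WT/Sed library. Abca13 rose by 0.91 ± 0.15 (adjusted p 0.00367) and moved from rank 13 to rank 9 of the members by TPM, from 14.0 to 31.3 TPM. Abca4, the retinoid flippase best known from photoreceptors, had 4.06, 3.90 and 5.35 CPM in WT/Sed and 10.6, 10.3 and 10.6 CPM in Cdo1KKO/Sed. The knockout libraries were nearly equal. Abca4 rose by 1.23 ± 0.14 (adjusted p 4.97e-05).

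The remaining rises came from a gene cluster on chromosome 11 that holds Abca8b, Abca8a, Abca9, Abca6 and Abca5 in this order, all on the minus strand. Abca9 had 2.62, 5.55 and 2.19 CPM in WT/Sed and 8.76, 6.26 and 8.13 CPM in Cdo1KKO/Sed. WT/Sed replicate 2 was high for its group and close to the lowest knockout library. Abca9 rose by 1.19 ± 0.33 (adjusted p 0.0260), and this call was lost without WT/Sed replicate 1 (0.0993), Cdo1KKO/Sed replicate 1 (0.0799) or Cdo1KKO/Sed replicate 3 (0.0801). Abca5, a lysosomal and endosomal member, had 19.3, 14.6 and 21.8 CPM in WT/Sed and 23.7, 25.3 and 23.7 CPM in Cdo1KKO/Sed. The highest WT/Sed library came within 2 CPM of the knockout libraries. Abca5 rose by 0.38 ± 0.13 (adjusted p 0.0371), and its adjusted p was 0.0829 without WT/Sed replicate 1 and 0.0899, 0.127 and 0.0947 without Cdo1KKO/Sed replicates 1, 2 and 3.

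The other cluster members were not called. Abca8a gave 0.26 ± 0.16 (adjusted p 0.237) and Abca8b 0.53 ± 0.25 (adjusted p 0.126), and the Abca8b share of their summed TPM was 30.5 ± 4.68% in WT/Sed, against 34.2 ± 4.49% in Cdo1KKO/Sed (exact permutation p 0.4). Abca6 was not tested, with 10, 6 and 4 counts in WT/Sed, against 13, 9 and 16 in Cdo1KKO/Sed. Marker lists of other cells went different ways. Of 5 fibroblast markers 4 rose, with a summed level of 20.3 to 28.2 CPM in WT/Sed and 53.8 to 64.1 CPM in Cdo1KKO/Sed, and none was at 0. Of 4 thick ascending limb markers 3 rose and 1 fell, of 4 podocyte markers 0 rose and 1 fell, and of 6 endothelial markers 0 rose and 0 fell. The part of any of these cells in the cluster's rises, and that of the macrophage markers given above, was not tested.

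Outside the cluster, Abca3, the surfactant lipid transporter of the lung and the fourth member by TPM, had 234, 192 and 268 CPM in WT/Sed and 226, 244 and 222 CPM in Cdo1KKO/Sed. The groups overlapped fully, and the log2 fold change was -0.00 ± 0.11 (adjusted p 0.991). Abca3 shares 914 exonic bases with D330041H03Rik on the opposite strand, and reads of overlapping genes may not be told apart here. D330041H03Rik had a mean of 113 counts in WT/Sed and 103 in Cdo1KKO/Sed, against 8406 and 9095 for Abca3. Abca2 gave -0.18 ± 0.07 (adjusted p 0.0614; 0.00383 without WT/Sed replicate 2). Abca14, which was too low to be tested, had 13, 6 and 15 counts in WT/Sed and 4 counts in each Cdo1KKO/Sed library.

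With TMM none of the known sterol and phospholipid exporters was called. Of 9 members 6 were tested, with a median log2 fold change of 0.23. Abca1, which loads cholesterol onto apolipoprotein A-I, had 29.9, 24.3 and 38.6 CPM in WT/Sed and 35.9, 39.3 and 35.9 CPM in Cdo1KKO/Sed. WT/Sed replicate 3 lay among the knockout libraries and the other WT/Sed libraries below them. The log2 fold change was 0.25 ± 0.15 (adjusted p 0.241). Without WT/Sed replicate 3, Abca1 passed the test (0.44, adjusted p 0.000669). Abcg1, the partner of Abca1 in cholesterol efflux, gave -0.01 ± 0.25, and Abca7 gave 0.14 ± 0.12 (adjusted p 0.376; 0.0319 without WT/Sed replicate 2). Under other scalings some of these exporters passed the test as higher in Cdo1KKO/Sed: Abca8b with library size alone (0.70, adjusted p 0.0472), and Abca1, Abca7 and Abca8a on log2(TPM + 1).

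Genes of sterol sensing and handling moved both ways around these exporters: of 24 tested, 8 rose and 6 fell. Nr1h3, which encodes the sterol receptor LXR alpha that drives Abca1 and Abcg1, fell by 0.46 on the log2 scale (adjusted p 0.000474). Lrp1, a lipoprotein receptor, rose by 0.96, and Lipa, the lysosomal lipase, fell by 0.44.

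In subfamily D, whose members serve peroxisomes and lysosomes, the lysosomal member changed. Abcd4, which exports vitamin B12 from lysosomes, had 39.1, 38.0 and 36.7 CPM in WT/Sed and 21.8, 25.6 and 21.7 CPM in Cdo1KKO/Sed. The groups were far apart, and the mean went from 37.9 ± 1.23 to 23.04 ± 2.24 CPM. Abcd4 fell by 0.72 ± 0.08 (adjusted p 3.72e-05), the smallest adjusted p of the tested members. Its counts equalled 0.418 ± 0.0265% of the summed proximal tubule marker counts in WT/Sed, against 0.431 ± 0.0196% in Cdo1KKO/Sed, where the groups overlapped (exact permutation p 0.6, adjusted p 0.72). Of 13 tested genes of vitamin B12 uptake and handling 8 fell and 0 rose, among them Tcn2, the plasma carrier of the vitamin (-0.53), and Amn, part of its kidney receptor (-0.71).

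Among the peroxisomal members, Abcd3, the first member by TPM, was not called; it had 622, 548 and 696 CPM in WT/Sed and 540, 554 and 545 CPM in Cdo1KKO/Sed. WT/Sed replicate 2 lay among the knockout libraries and the other WT/Sed libraries above them. The log2 fold change was -0.19 ± 0.08 (adjusted p 0.0753), and without WT/Sed replicate 2 it was -0.27 (adjusted p 0.000271). On both TPM scales it was 0.07 (adjusted p 0.53, limma). Abcd2 stayed below 1 CPM in every library. Of 28 tested genes of peroxisomal fatty acid import and oxidation 16 fell and 1 rose, with a median of -0.41. Relative to the proximal tubule markers Abcd3 was higher in every knockout library, at 6.78, 5.62 and 8.36% in WT/Sed, against 10.2, 9.77 and 10.8% in Cdo1KKO/Sed (exact permutation p 0.1, adjusted p 0.15). Abcd3 fell less than those markers, so the direction of this ratio too was known beforehand.

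Among the half-transporters of subfamily B, which sit in mitochondria and lysosomes, 1 of 5 fell and 0 rose. The shares over all genes were 18.5% and 18.9%. Abcb8, the ATP-binding subunit of a mitochondrial potassium channel that is also tied to iron export, had 41.4, 41.1 and 34.7 CPM in WT/Sed and 31.8, 33.2 and 30.8 CPM in Cdo1KKO/Sed. WT/Sed replicate 3 lay close above the knockout libraries. Abcb8 fell by 0.29 ± 0.08 (adjusted p 0.0136), and its adjusted p was 0.0785 without WT/Sed replicate 1, 0.0570 without Cdo1KKO/Sed replicate 1 and 0.0655 without Cdo1KKO/Sed replicate 3. On log2(TPM + 1) it was -0.03 and not called (adjusted p 0.740, limma). Abcb6, Abcb9 and Abcb10 were not called, with log2 fold changes of -0.35, -0.19 and -0.08. Of 32 tested genes of heme synthesis and iron-sulfur cluster assembly 20 fell and 3 rose, among them Alad, an enzyme of heme synthesis (-0.66), and Hmox1, which degrades heme (2.17).

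The sulfonylurea receptors are ABC proteins that regulate ATP-sensitive potassium channels in place of carrying a substrate. Abcc9, the receptor of vascular and smooth muscle channels, had 20.2, 18.6 and 20.4 CPM in WT/Sed and 12.3, 13.3 and 12.2 CPM in Cdo1KKO/Sed. The groups were narrow and far apart. Abcc9 fell by 0.65 ± 0.08 (adjusted p 0.000125). Abcc8, the receptor of the pancreatic beta cell, was too low to be tested. The pore that pairs with Abcc9, Kcnj8, moved the other way, with 2.93, 5.58 and 2.63 CPM in WT/Sed and 8.15, 9.53 and 7.91 CPM in Cdo1KKO/Sed (1.23 ± 0.26, adjusted p 0.00556). Kcnj11, the other pore, gave 0.08 (adjusted p 0.888).

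Abcc9 is widely used as a pericyte marker in other tissues. Of the 8 pericyte and smooth muscle markers, Kcnj8 among them, 4 rose and 0 fell, none was at 0, with a median of 0.36 and a summed level of 52.3 to 104 CPM in WT/Sed and 103 to 107 CPM in Cdo1KKO/Sed. Their part in the Abcc9 result was not tested. Abcc9 shares 158 exonic bases with 5330439B14Rik on the opposite strand, a gene with few counts in these libraries.

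The soluble proteins of subfamilies E and F were not called, 0 of 4, and their median log2 fold change was 0.04. Abce1, which splits ribosomes after termination, had 116, 109 and 130 CPM in WT/Sed and 122, 125 and 127 CPM in Cdo1KKO/Sed (0.08 ± 0.07, adjusted p 0.357; 0.0317 without WT/Sed replicate 3). Abcf1, a partner of initiation factor eIF2, gave 0.08 ± 0.05 (adjusted p 0.271). Abcf2 gave 0.01 ± 0.06 (adjusted p 0.896), and Abcf3 gave -0.12 ± 0.06 (adjusted p 0.18). Of 19 tested genes of ribosome recycling, termination and the GCN2 pathway 5 rose and 2 fell, with a median of 0.02. The 0 of 4 holds with TMM: with library size alone Abce1 (0.25), Abcf1 (0.25) and Abcf2 (0.18) passed the test as higher in Cdo1KKO/Sed. These 4 members held 16.1 to 17.0% of the family's TPM in WT/Sed, against 18.0 to 18.8% in Cdo1KKO/Sed.

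**Figure D4:**
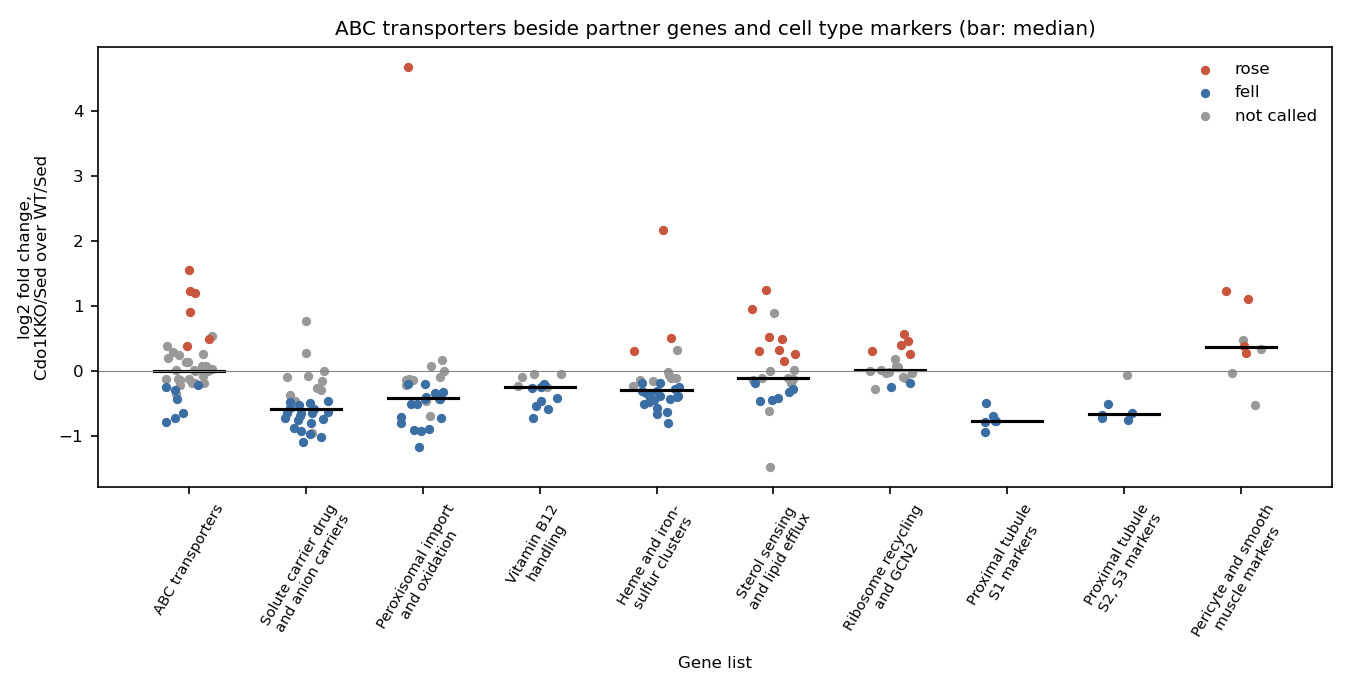
Log2 fold change of Cdo1KKO/Sed over WT/Sed for each tested gene of the ABC transporters and of some of the partner and marker lists. Each point is 1 gene coloured by its call and the bar is the median. Partner lists shown are solute carriers, peroxisomal genes, vitamin B12, heme and iron-sulfur clusters, sterol handling and ribosome recycling. Markers shown are those of proximal tubule and pericytes. Some solute carriers are also among the segment S2 and S3 markers. Antigen presentation genes, transporter gene regulators, channel pores and markers of other cells are not shown. The ABC transporters centre on 0.00, the solute carriers on -0.59, peroxisomal genes on -0.41 and segment S1 markers on -0.77.

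A few ABC proteins carry symbols outside the rule. The peptide transporters of antigen presentation, Tap1 and Tap2, rose by 3.30 and 1.45 on the log2 scale, from means of 4.85 to 46.7 CPM and 6.66 to 18.1 CPM. Cftr, the chloride channel of the family, rose by 0.74, from 7.05 to 11.7 CPM.

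Of the 13 called members, Abcc2 and Abcc5 changed sign, on the TPM scales and under no other alternative run, and some other falls lost their call under another scaling. The median of all genes was 0.01 with TMM, 0.18 with library size alone and 0.19 on log2(TPM + 1). Abcc2 gave -0.25 with TMM, -0.08 with library size alone (adjusted p 0.202) and 0.00 on log2(TPM + 1) (adjusted p 0.939). Abcg2 kept its call with library size alone (-0.25, adjusted p 0.00289) and lost it on log2(TPM + 1) (-0.17, adjusted p 0.0505, limma). Abcc5 and Abcb8 also lost their calls with library size alone, at -0.05 and -0.12. Under all 18 alternatives run, 7 of the 13 called members kept their call: Abca4, Abca13, Abcc1, Abcc3, Abcc6, Abcc9 and Abcd4.

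**Figure D5:**
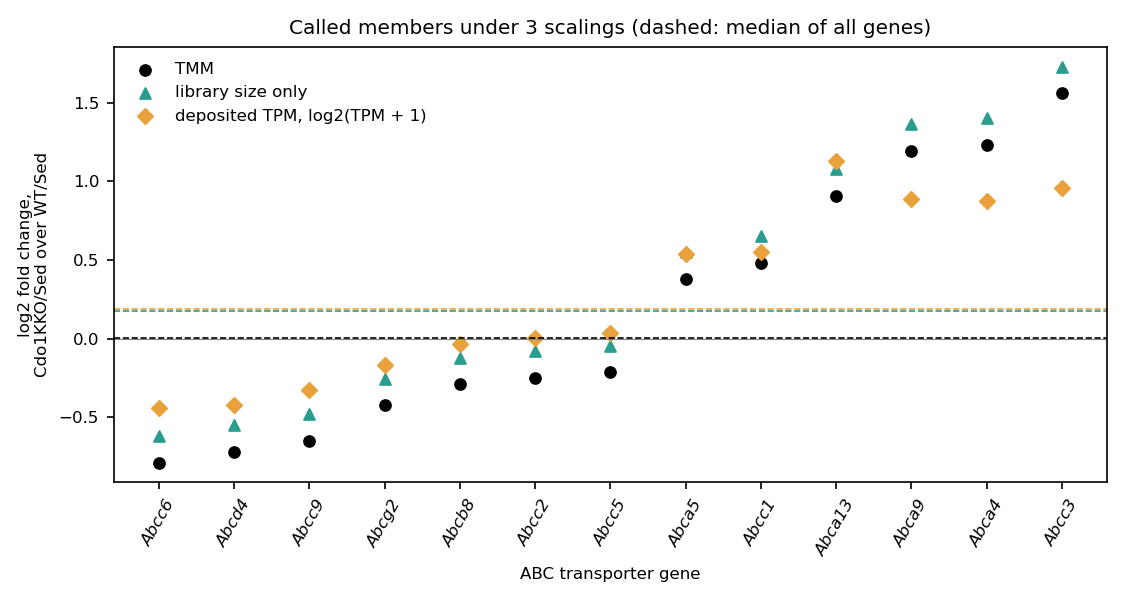
Log2 fold change of the 13 called members with TMM, with library size alone and on log2(TPM + 1); dashed lines give the median of all genes under each. The symbols for library size alone and for log2(TPM + 1) lie above those for TMM in most members, the Abcc2 and Abcc5 symbols reach 0 or above on log2(TPM + 1), and the falls of Abcc6, Abcd4 and Abcc9 stay below it.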

How the data were processed

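Per the labels, RNA came from whole kidney and poly(A) RNA was sequenced. The submitters' processing notes name fastp 0.23.4 and the builds GRCm38 and mm10; which aligner, counter, annotation and strand setting were used is not given in the sources used here. Both tables that the authors deposited cover the same genes, 1 with whole-number counts and 1 with TPM; the deposited TPM can be recomputed from the counts when every gene is given a single length. Values from 1 to 20 are mostly even numbers (71.6 to 74.5% per library), so an alternative with counts halved was run.

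The test was run with edgeR 4.0.16 (R 4.3.3): filterByExpr (17194 genes kept), TMM factors (0.938 to 0.948 in WT/Sed, 1.05 to 1.07 in Cdo1KKO/Sed), a robust quasi-likelihood F test of genotype, and Benjamini-Hochberg adjustment over all genes tested at 0.05. The SE is the absolute log2 fold change over the square root of F. On simulated data, 52% of 100 genes changed by 0.5 and 64.9% of 97 genes changed by 1 on the log2 scale were called, with 7 false calls. The simulation changed few genes and put in no difference in scaling between groups. In the data 37.4% of all genes were called and the TMM factors differed by group. The simulated rates therefore need not hold for this comparison. Alternatives used limma 3.58.1 and DESeq2 1.42.0.

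The members and gene lists were chosen with earlier results of these data known. Full statistics are given for called members at 1 CPM or more without overlap, at most 10 in each direction, for the 10 members highest in WT/Sed TPM, and for up to 3 genes of each partner list. 2 tested members enter the counts and medians but are not reported here by name. Ratios to the proximal tubule markers were added after the values were seen, and the members in them were chosen then.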

Additional observations from a re-analysis of the deposited data

How the results depend on the processing

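Scaling decided the balance of calls. With library size only, 11 members rose and 4 fell, beside 5513 and 1685 of all genes, and 50 partner genes fell, against 78 with TMM. On log2(TPM + 1), 13 members rose and 3 fell, beside 6714 and 1249 of all genes and 56 and 39 partner genes; on log2(TPM + 0.1) the counts were 12 and 3, 6617 and 1240, and 56 and 39. Signs turned for members near 0. Abca3 was 0.17 with library size, 0.26 on both TPM scales, 0.0023 with upper-quartile factors, 0.0033 with limma-voom, 0.0098 with a filter of 1 CPM and 0.0011 with counts halved, an alternative chosen after seeing the data. With library size and on the TPM scales in turn, Abcf3 was 0.051, 0.13 and 0.13. On both TPM scales Abcc2 was 0.0045; Abcc5 was 0.039 and 0.041, and Abcd3 0.071 and 0.072. Leaving out 1 library at a time gave 4 to 9 members that rose and 5 to 10 that fell, beside 2306 to 3767 and 2331 to 3553 of all genes and 28 to 35 and 60 to 91 partner genes. Abca3 was then -0.12 to 0.11 and Abcf2 -0.017 to 0.063. The Abcb1b share moved by -5.45 to 0.950 points and the Abca8b share by 1.17 to 6.28. Without a filter 7 members rose and 8 fell, adding Abca1 and Abcd3. Same-numbered libraries did not deviate together (correlations -0.00, 0.01 and 0.01). With the replicate number as a block, 5 members rose and 7 fell, Abca9 lost its call (adjusted p 0.0622), Abca3 was 0.0092, Cdo1 was -0.74, 3117 and 3029 of all genes rose and fell, as did 33 and 79 partner genes. The cause of these shifts was not tested.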
